A study of Mus musculus with 10 samples.

Results

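The heat shock chaperones are proteins that bind unfolded or aggregating proteins and help them fold, refold or be degraded. The 10 transcripts described here were the rows of the deposited table named Hspa1a, Hspa1b, Hspa8, Hspb1, Hsp90aa1, Hsp90ab1, Dnajb1, Hsph1, Hspd1 and Hspe1, out of 31285 genes listed. All 10 members were found, and all 10 passed the filter on low values (at least 1 FPKM in at least 5 libraries), as did 12785 genes in all. They were measured by RNA sequencing in inguinal (subcutaneous) white adipose tissue of mice that were 20 months old and fed regular chow without restriction. One group was Ad-GHRKO, which the series describes as lacking the growth hormone receptor (Ghr) specifically in adipose tissue and which the sample labels call GHR Knockdown (5 samples). The other was Flox, the comparison genotype (5 samples). The labels give neither the Cre driver nor the sex of the mice. Nor do they say whether the samples are separate animals, so p-values here cover the spread between the samples, which may be technical. Values are FPKM (fragments per kilobase, scaled to the total of each library), a scale that divides by transcript length.

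When proteins unfold, for example in heat, heat shock factor 1 (Hsf1) forms trimers and binds heat shock elements, which are inverted repeats of GAA and TTC in the promoters of chaperone genes. Some chaperones, such as Hspa8 and Hsp90ab1, are made in most cells without stress, while Hspa1a and Hspa1b are known for low levels at rest and a steep rise under stress. In white fat, the mitochondrial chaperonin of Hspd1 and Hspe1 folds proteins imported into adipocyte mitochondria. Tissue handling, such as the time between death and freezing, is also known to induce the stress-responsive members, as it does the immediate early genes.

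Recovered reads came to between 14.59 and 19.24 M per library (M, mega). Ghr was 15.1, 20.1, 13.0, 16.7 and 17.9 FPKM in the Ad-GHRKO libraries, against 72.9, 129.8, 89.7, 80.9 and 94.1 FPKM in the Flox libraries. The groups did not overlap, and the log2 change was -2.41 (SE 0.17; limma adjusted p = 6.54e-05; exact two-sided permutation p = 0.00794, the smallest that 5 samples against 5 allow). The adipocyte markers Fabp4 and Cidec were present in every library, as the tissue label requires, but both were lowest in Ad-GHRKO 1. Fabp4 was 842 FPKM there, against 2225 to 2662 FPKM in Ad-GHRKO 2 to 5. The 9 adipocyte markers summed to 3416 FPKM in Ad-GHRKO 1, against 7566 to 9932 FPKM in Ad-GHRKO 2 to 5 and 6403 to 10563 FPKM in Flox. In Ad-GHRKO 1, 16.8% of the reads fell on 18 skeletal muscle markers, as did 6.71% in Flox 3 and 9.61% in Flox 5. In the other 7 libraries the share was between 0.00481% and 0.219%, and at most 2 of the 18 markers were at 0 in any library. Summed FPKM of the skeletal muscle list ran from 52.6 to 63257 in Ad-GHRKO and from 23.9 to 36679 in Flox. These 3 libraries are called muscle-rich below, and the other values of such libraries are lowered in FPKM, which is relative to the total. None of the tested genes in the 10 cell type marker lists passed the test described below. Only 5 of 18 skeletal muscle, 2 of 6 T and NK cell and 0 of 6 epithelial markers were tested, so this does not speak for those lists as a whole. Acta2, a smooth muscle actin also made by pericytes, did not overlap between the groups, with 83.8 to 281 FPKM in Ad-GHRKO and 38.004 to 82.3 FPKM in Flox (log2 change 1.34, limma adjusted p = 0.0629). Macrophage markers summed to 848 to 2322 FPKM in Ad-GHRKO and 576 to 1773 FPKM in Flox, with 8 of 8 log2 changes positive and a median of 0.42, and epithelial markers to at most 4.46 FPKM in Ad-GHRKO and 3.32 FPKM in Flox.

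No heat shock member passed the test between genotypes. Of the 10, 0 were higher and 0 were lower in Ad-GHRKO at an adjusted p of 0.05 (limma with Benjamini-Hochberg adjustment over all 12785 genes), where 2.19% of all tested genes were called, 0.774% higher and 1.42% lower. With limma voom on the recovered reads the count was also 0. At an unadjusted p under 0.05, 3 members were past (Hspb1, Hsp90aa1 and Hspe1), against 16.4% of all tested genes. This count moved with the processing. It was 0 when each library was scaled by its median ratio to the gene means (median ratio scaling). It was 1 without Ad-GHRKO 1, and 4 with the replicate number as a block. The groups overlapped for every member, so the count without overlap was 0 of 10, against 4.97% of all tested genes. The log2 change was positive for 7 members and negative for 3, with a median of 0.22 and a range of -0.32 to 0.80. The median over all tested genes was 0.04, and 55.7% of them had a positive change. In whole tissue, fewer cells of a type and less RNA per cell cannot be told apart.

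**Figure D1:**
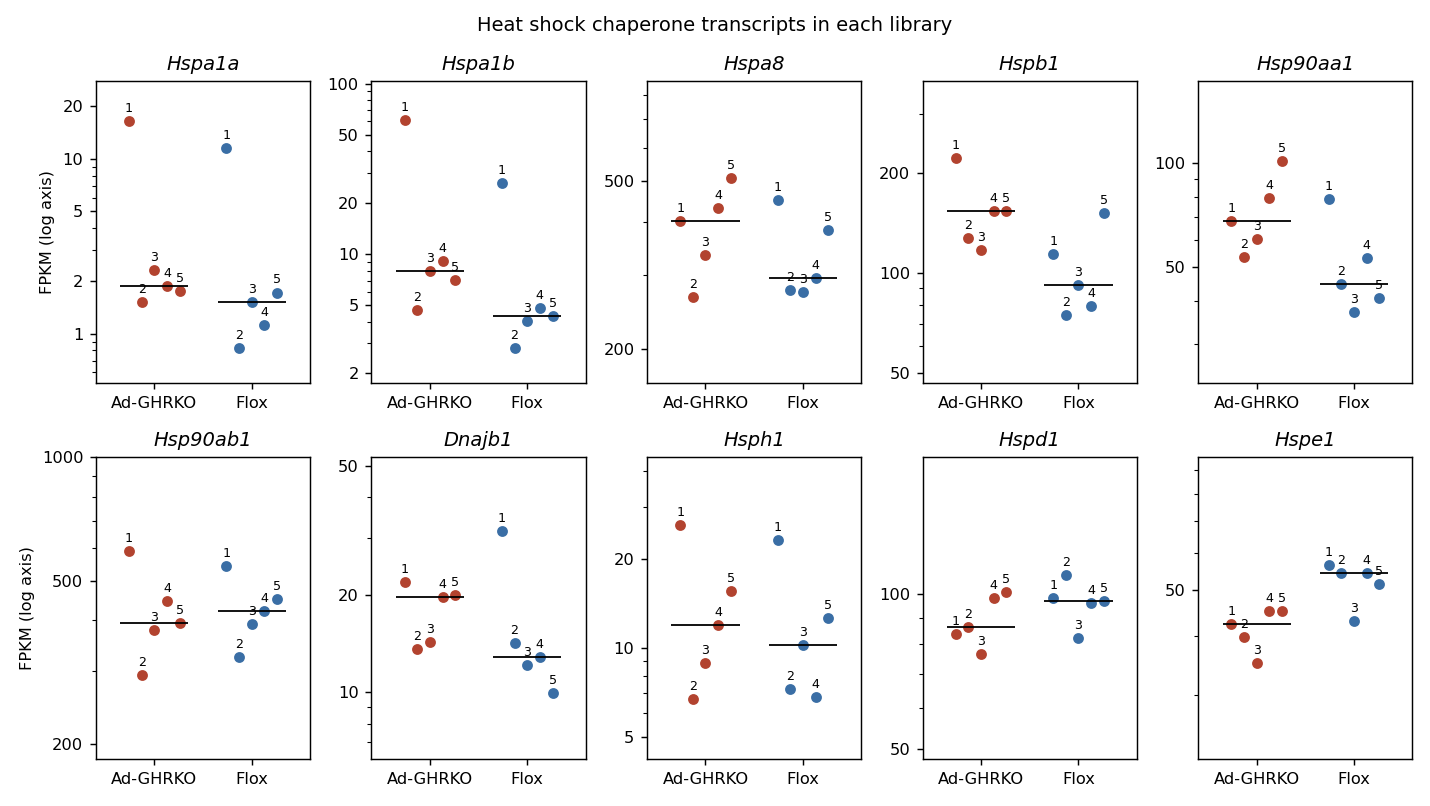
FPKM (log axis) of each of the 10 chaperone transcripts, with 1 point per library, Ad-GHRKO at the left and Flox at the right of each panel, numbered by library, and a bar at the median of the genotype. The points of the genotypes overlap in every panel, and 1 point per genotype stands far above the others for Hspa1a and Hspa1b.

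The order of levels was broadly shared by the libraries. Over all 10 libraries, the median level was highest for Hsp90ab1 (407 FPKM) and then Hspa8 (358 FPKM), and Hsp90ab1 was above Hspa8 in 9 of 10 libraries. Hspb1 followed at 122 FPKM, then Hspd1 at 96.4, Hsp90aa1 at 57.0, Hspe1 at 45.1, Dnajb1 at 14.2, Hsph1 at 11.1, Hspa1b at 5.93 and Hspa1a at 1.73 FPKM. The neighbours Hsp90aa1 and Hspe1 were not in a stable order, since Hsp90aa1 was above Hspe1 in only 6 of 10 libraries. The other neighbours kept this order in 8 to 10 libraries each. Hspa8 and Hsp90ab1 together made up 62.7% to 68.9% of the summed FPKM of the 10 members in Ad-GHRKO and 66.2% to 70.3% in Flox. The 10 members took 0.277% to 0.477% of the reads of Ad-GHRKO libraries and 0.290% to 0.472% of those of Flox libraries.

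Hspa1a and Hspa1b encode the stress-inducible cytosolic Hsp70, an ATP-driven chaperone that grips exposed hydrophobic stretches of its clients. Both genes lie on the minus strand of chromosome 17 (GRCm38), Hspa1a (ENSMUSG00000091971) at chr17:34969190-34972156 and Hspa1b (ENSMUSG00000090877) at chr17:34956436-34959238, with 9951 bases between them. Their proximal promoters are printed because these near-copies are the members that varied most among the libraries. The 150 bases before each RefSeq start site (GRCm38.p6, minus strand, Hspa1a at chr17:34972157-34972306 and Hspa1b at chr17:34959239-34959388) read as follows, 5′ to 3′, with the heat shock element of 2 units (GAANNTTC) in capitals:

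Hspa1a: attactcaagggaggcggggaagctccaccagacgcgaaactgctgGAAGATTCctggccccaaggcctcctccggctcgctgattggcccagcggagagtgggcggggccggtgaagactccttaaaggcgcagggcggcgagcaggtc

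Hspa1b: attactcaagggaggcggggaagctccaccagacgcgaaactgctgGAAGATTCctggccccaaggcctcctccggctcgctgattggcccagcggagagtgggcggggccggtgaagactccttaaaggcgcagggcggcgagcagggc

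The 2 stretches carried the same base at 149 of 150 positions, and both held the element at 104 bases before the start site and CCAAT on 1 strand at 67 bases before it. The transcripts are near-copies too: 56.5% of the stretches of 100 bases in Hspa1a and 49.9% of those in Hspa1b also occurred in another gene, mostly in the other of the pair. The split of reads between Hspa1a and Hspa1b is therefore uncertain, and Hspa1a also overlaps the exons of Gm20481 on the opposite strand.

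Hspa1b was 60.9, 4.72, 7.97, 9.15 and 7.03 FPKM in Ad-GHRKO libraries 1 to 5, against 26.1, 2.80, 4.04, 4.84 and 4.31 FPKM in Flox libraries 1 to 5. Hspa1a was 16.4, 1.51, 2.30, 1.87 and 1.75 FPKM in Ad-GHRKO libraries 1 to 5, against 11.6, 0.831, 1.52, 1.11 and 1.72 FPKM in Flox libraries 1 to 5. For both genes a single library of each genotype, the one numbered 1, stood far above the other 4. The ratio of the highest to the lowest library was 12.9 in Ad-GHRKO and 9.31 in Flox for Hspa1b, and 10.9 in Ad-GHRKO and 13.9 in Flox for Hspa1a. The SD within each genotype was larger than the difference between the genotype means. Hspa1b averaged 18.0 ± 24.1 FPKM in Ad-GHRKO and 8.41 ± 9.90 FPKM in Flox (SD, n = 5 each), and its log2 change of 0.80 (SE 0.67) had a 95% interval of -0.66 to 2.26 (limma adjusted p = 0.610). Hspa1a averaged 4.77 ± 6.51 FPKM in Ad-GHRKO and 3.35 ± 4.60 FPKM in Flox (SD, n = 5 each), and its log2 change of 0.36 (SE 0.62) had a 95% interval of -0.999 to 1.71 (limma adjusted p = 0.829).

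Summed over the pair, which sets aside the uncertain split between them, the inducible Hsp70 transcripts came to 77.3 FPKM in Ad-GHRKO 1 and 6.23 to 11.02 FPKM in Ad-GHRKO 2 to 5, against 37.6 FPKM in Flox 1 and 3.63 to 6.03 FPKM in Flox 2 to 5. Apart from the libraries numbered 1, every Ad-GHRKO sum was above every Flox sum. Leaving out both libraries numbered 1, an alternative chosen after the values were seen, gave Hspa1b a log2 change of 0.70 (limma adjusted p = 0.0611) and Hspa1a 0.33 (limma adjusted p = 0.196). Neither passed the test there or in any other alternative run (20 for Hspa1b, 19 for Hspa1a). Without the 3 muscle-rich libraries the direction turned, to -0.069 for Hspa1b (limma adjusted p = 0.960) and -0.36 for Hspa1a (limma adjusted p = 0.741). That alternative leaves out Ad-GHRKO 1, the high Ad-GHRKO library of the pair, but keeps Flox 1, the high Flox library. Without Ad-GHRKO 1 alone the log2 change was 0.21 for Hspa1b and -0.17 for Hspa1a. Without Flox 1 alone it was 1.29 for Hspa1b (limma adjusted p = 0.335) and 0.85 for Hspa1a (limma adjusted p = 0.489). Hspa1a was counted from as few as 76 reads in an Ad-GHRKO library and 44 reads in a Flox library, which limits its precision.

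The libraries numbered 1 had unlike amounts of skeletal muscle RNA. The muscle markers took 16.8% of the reads of Ad-GHRKO 1 but 0.00980% of those of Flox 1, the third lowest share of the 10 libraries. Flox 3 and Flox 5, with 6.71% and 9.61%, had 5.56 and 6.03 FPKM of the inducible pair, within the values of Flox 2 and Flox 4 (3.63 and 5.95 FPKM) or just above them. The 21 immediate early genes of the list, which respond within minutes to growth factors, stress and tissue handling, had a summed level of 778, 448, 802, 759 and 1117 FPKM in Ad-GHRKO libraries 1 to 5, against 387, 258, 255, 348 and 187 FPKM in Flox libraries 1 to 5. Flox 1 was the highest Flox library in that sum, and Ad-GHRKO 1 was the third highest Ad-GHRKO library. The labels do not say what the number in a sample name stands for, and the part that handling, muscle or a shared batch had in the high values was not tested.

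**Figure D2:**
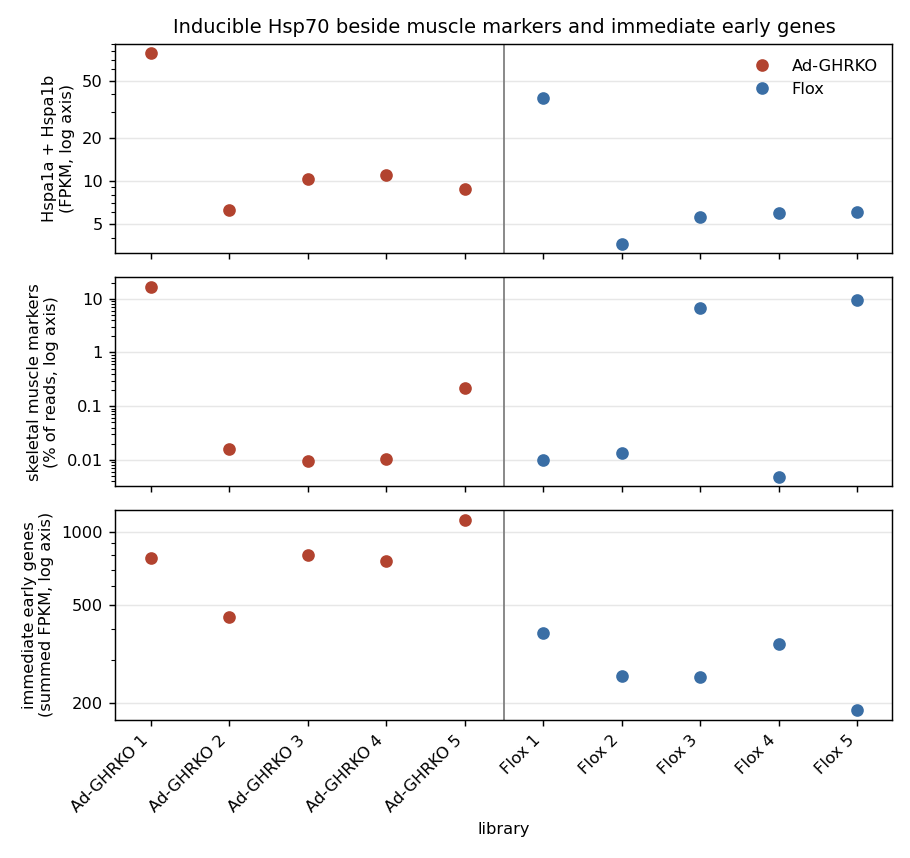
From top to bottom, summed FPKM of Hspa1a and Hspa1b, the share of reads on 18 skeletal muscle markers, and summed FPKM of the immediate early genes, all on log axes, for Ad-GHRKO libraries 1 to 5 at the left of the line and Flox libraries 1 to 5 at the right. The inducible Hsp70 pair was highest in Ad-GHRKO 1 and Flox 1, whereas muscle markers were high in Ad-GHRKO 1, Flox 3 and Flox 5.

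The library numbered 1 was the highest of its genotype in both genotypes for 5 of the 10 members, namely Hspa1a, Hspa1b, Hsp90ab1, Dnajb1 and Hsph1, against 1.38% of all tested genes. It was the highest Ad-GHRKO library for 6 members and the highest Flox library for 8. This pattern was noticed in these data and is given as a description.

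Hspa8 encodes the constitutive Hsp70 of the cytosol, known for uncoating clathrin vesicles and for carrying proteins into lysosomes. Hspa8 (ENSMUSG00000015656, chr9:40800984-40810087, plus strand, GRCm38) was 403, 266, 335, 432 and 508 FPKM in Ad-GHRKO libraries 1 to 5, against 450.3, 277, 273, 295 and 382 FPKM in Flox libraries 1 to 5. The groups overlapped throughout, and their lowest libraries were at almost the same level. The log2 change was 0.21 (SE 0.22, 95% interval -0.28 to 0.69, limma adjusted p = 0.706). Hspa8 varied far less among libraries than the inducible pair did: its level was 5.21 to 57.8 times that of Hspa1a and Hspa1b together in Ad-GHRKO and 12.0 to 76.3 times in Flox, with the lowest ratio of each genotype in the library numbered 1. Exons annotated for Hspa8, taken over all its transcripts, overlap the small nucleolar RNAs Snord14c, Snord14d and Snord14e. Of its stretches of 100 bases, 28.5% occur in other genes, mostly the copy Gm15459. Its count may include or lose such reads.

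Dnajb1 encodes the J-domain protein Hsp40, which starts the ATPase cycle of Hsp70, and Hsph1 encodes Hsp110, which exchanges the nucleotide of Hsp70. With Hsp70 they form the machine that pulls proteins out of aggregates. Dnajb1 (ENSMUSG00000005483, chr8:83608193-83612653, plus strand, GRCm38) was 21.9, 13.6, 14.3, 19.7 and 20.0 FPKM in Ad-GHRKO libraries 1 to 5, against 31.4, 14.2, 12.1, 12.9 and 9.96 FPKM in Flox libraries 1 to 5. Flox 1 was the highest of all 10 libraries, and 4 Ad-GHRKO libraries were above the other 4 Flox libraries. The log2 change of Dnajb1 was 0.23 (SE 0.27, 95% interval -0.35 to 0.82, limma adjusted p = 0.727) with all libraries. Without Flox 1 it was 0.49 (limma adjusted p = 0.224) and without both libraries numbered 1 it was 0.42 (limma adjusted p = 0.136). It was -0.10 without the 3 muscle-rich libraries (limma adjusted p = 0.859), an alternative that keeps Flox 1.

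Hsph1 (ENSMUSG00000029657, chr5:149614287-149636376, minus strand, GRCm38) was 26.2, 6.71, 8.89, 12.0 and 15.7 FPKM in Ad-GHRKO libraries 1 to 5, against 23.2, 7.27, 10.2, 6.83 and 12.6 FPKM in Flox libraries 1 to 5. The library numbered 1 was again the highest in both genotypes, and the remaining libraries of the genotypes overlapped. The log2 change was 0.18 (SE 0.37, 95% interval -0.64 to 0.997, limma adjusted p = 0.861). It was -0.073 without Ad-GHRKO 1 and -0.036 without the 3 muscle-rich libraries, and both of these alternatives keep Flox 1. Dnajb1 and Hsph1 share no stretch of 100 bases with another gene, so their counts do not rest on the near-copies that affect Hspa1a and Hspa1b.

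Hsp90 matures kinases and steroid receptors rather than refolding unfolded proteins, and it has a stress-inducible form (Hsp90aa1, Hsp90 alpha) and a constitutive one (Hsp90ab1, Hsp90 beta). Hsp90aa1 (ENSMUSG00000021270, chr12:110690605-110702728, minus strand, GRCm38) was 68.2, 53.6, 60.5, 79.1 and 101 FPKM in Ad-GHRKO libraries 1 to 5, against 78.9, 44.6, 37.1, 53.2 and 40.8 FPKM in Flox libraries 1 to 5. Every Ad-GHRKO library was above every Flox library except Flox 1, which was exceeded only by Ad-GHRKO 4 and 5. The level was 72.6 ± 18.7 FPKM in Ad-GHRKO and 50.9 ± 16.7 FPKM in Flox (SD, n = 5 each), a log2 change of 0.52 (SE 0.23, 95% interval 0.02 to 1.02, limma unadjusted p = 0.0433, adjusted p = 0.288). Without both libraries numbered 1 it was 0.70 (limma adjusted p = 0.0698), the lowest adjusted p of Hsp90aa1 in the 20 alternatives. The highest was 0.535. In Hsp90aa1, 38% of the stretches of 100 bases occur in other genes, mostly Gm12346.

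Hsp90ab1 (ENSMUSG00000023944, chr17:45567775-45573271, minus strand, GRCm38) was 589.9, 294, 379, 446 and 394 FPKM in Ad-GHRKO libraries 1 to 5, against 543, 326, 392, 421 and 449.9 FPKM in Flox libraries 1 to 5. The groups covered nearly the same range, with Ad-GHRKO libraries at both ends. The log2 change was -0.04 (SE 0.21, 95% interval -0.51 to 0.43, limma adjusted p = 0.954), and it was 0.08 when each library was rescaled to TPM (a fixed total per library). The ratio of Hsp90ab1 to Hsp90aa1 was 3.89 to 8.65 in Ad-GHRKO and 6.88 to 11.04 in Flox, ranges that overlap through Ad-GHRKO 1 alone on the Ad-GHRKO side.

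Hspb1 encodes Hsp25 (Hsp27 in human), a small heat shock protein that holds unfolding proteins without using ATP and binds actin filaments. Hspb1 (ENSMUSG00000004951, chr5:135887919-135889563, plus strand, GRCm38) was 222, 127, 117, 153 and 153 FPKM in Ad-GHRKO libraries 1 to 5, against 114, 74.4, 91.5, 79.3 and 151 FPKM in Flox libraries 1 to 5. In 3 of 5 Ad-GHRKO libraries it was above the highest Flox library, and every Ad-GHRKO library was above every Flox library but Flox 5. Hspb1 averaged 154 ± 41.0 FPKM in Ad-GHRKO and 102 ± 31.3 FPKM in Flox (SD, n = 5 each), a log2 change of 0.61 (SE 0.23, 95% interval 0.10 to 1.11), which is a ratio of 1.52 with an interval of 1.07 to 2.16. It had the smallest p of the 10 members, and the test was missed (limma unadjusted p = 0.0231, adjusted p = 0.217). The highest library of each genotype, Ad-GHRKO 1 and Flox 5, was muscle-rich. Without the 3 muscle-rich libraries the log2 change was 0.64 (limma adjusted p = 0.0805), and with the muscle score as a covariate the adjusted p was 0.0511, the lowest of any member in any of the 20 alternatives. Over those alternatives the limma adjusted p of Hspb1 ran up to 0.422.

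The promoter of Hspb1 held the heat shock element of 2 units at 117 and at 97 bases before the start site, and it is printed because Hspb1 had the smallest p among the members. The 150 bases before the RefSeq start site (GRCm38.p6, plus strand, chr5:135887769-135887918) were, with both elements in capitals:

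Hspb1: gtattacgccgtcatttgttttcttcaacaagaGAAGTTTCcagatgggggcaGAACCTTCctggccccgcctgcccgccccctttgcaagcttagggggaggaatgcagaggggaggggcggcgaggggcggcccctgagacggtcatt

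The transcripts of Hspb1 share 44.0% of their stretches of 100 bases with Hsp25-ps1, an annotated copy, so reads could be split between the gene and this copy.

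Hspd1 encodes Hsp60, the barrel of the mitochondrial chaperonin, and Hspe1 encodes Hsp10, its lid. The genes are neighbours on chromosome 1, transcribed away from each other, Hspd1 (ENSMUSG00000025980) at chr1:55077835-55088243 on the minus strand and Hspe1 (ENSMUSG00000073676) at chr1:55088132-55091307 on the plus strand (GRCm38). Their annotated 5′ ends overlap by 112 bases, and the pair is known to share a bidirectional promoter. A stretch of 30 bases there (GRCm38.p6, plus strand, chr1:55088053-55088082, before the RefSeq start site of Hspe1 and within an annotated exon of Hspd1) is shown because it held the only heat shock element of 3 units found before a start site in the 7 promoter windows of members that were searched, in capitals as 2 overlapping copies:

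Hspe1: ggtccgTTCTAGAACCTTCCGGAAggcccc

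Hspe1 was 42.4, 39.7, 35.0, 45.1 and 45.2 FPKM in Ad-GHRKO libraries 1 to 5, against 56.5, 54.3, 42.9, 54.5 and 51.5 FPKM in Flox libraries 1 to 5. In 3 Ad-GHRKO libraries it was below the lowest Flox library, Flox 3, and no Ad-GHRKO library reached the Flox median of 54.3 FPKM. Hspe1 averaged 41.5 ± 4.25 FPKM in Ad-GHRKO and 51.9 ± 5.35 FPKM in Flox (SD, n = 5 each), a log2 change of -0.32 (SE 0.13, 95% interval -0.59 to -0.04, limma unadjusted p = 0.0282, adjusted p = 0.238). Without the 3 muscle-rich libraries the log2 change was -0.42 (limma adjusted p = 0.0772), the lowest adjusted p of Hspe1 in the 20 alternatives. The highest was 0.473.

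Hspd1 was 83.5, 86.5, 76.4, 98.1 and 101 FPKM in Ad-GHRKO libraries 1 to 5, against 98.4, 109, 82.2, 95.9 and 96.9 FPKM in Flox libraries 1 to 5. Its groups overlapped widely, and its log2 change was -0.12 (SE 0.13, 95% interval -0.41 to 0.18, limma adjusted p = 0.728), or 0.0035 when rescaled to TPM. Hspd1 and Hspe1 had the smallest spread of the 10 members: the coefficient of variation of Hspd1 was 11.5% in Ad-GHRKO and 9.88% in Flox, against 134% in Ad-GHRKO and 118% in Flox for Hspa1b. Neither was highest in the library numbered 1 of both genotypes. The ratio of Hspd1 to Hspe1 stayed between 1.97 and 2.23 in Ad-GHRKO and between 1.74 and 2.01 in Flox, ranges that overlap only through Ad-GHRKO 1 and Flox 2.

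**Figure D3:**
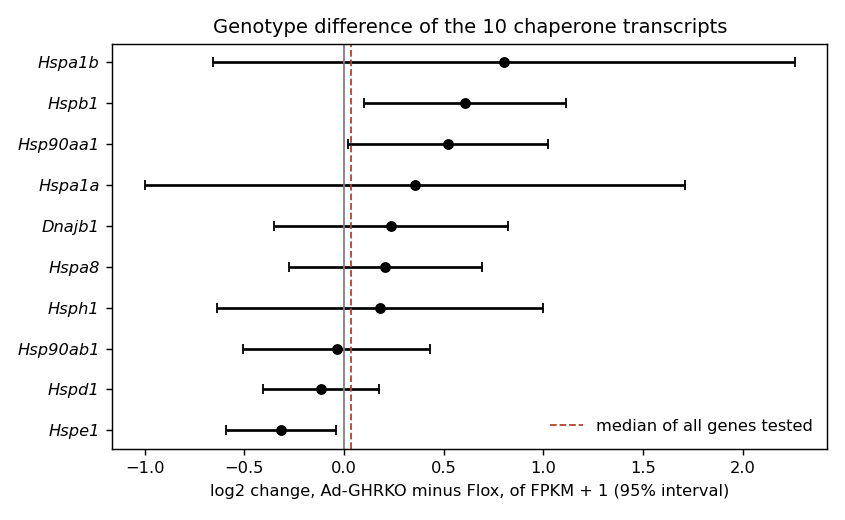
Log2 change of each member (Ad-GHRKO minus Flox, on FPKM + 1) with its 95% interval, from limma, and a dashed line at the median of all tested genes (0.04). With all libraries and no rescaling, the intervals of Hspb1, Hsp90aa1 and Hspe1 leave out 0, and those of the other 7 members hold it. No member passed after adjustment over all genes.

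**Figure D4:**
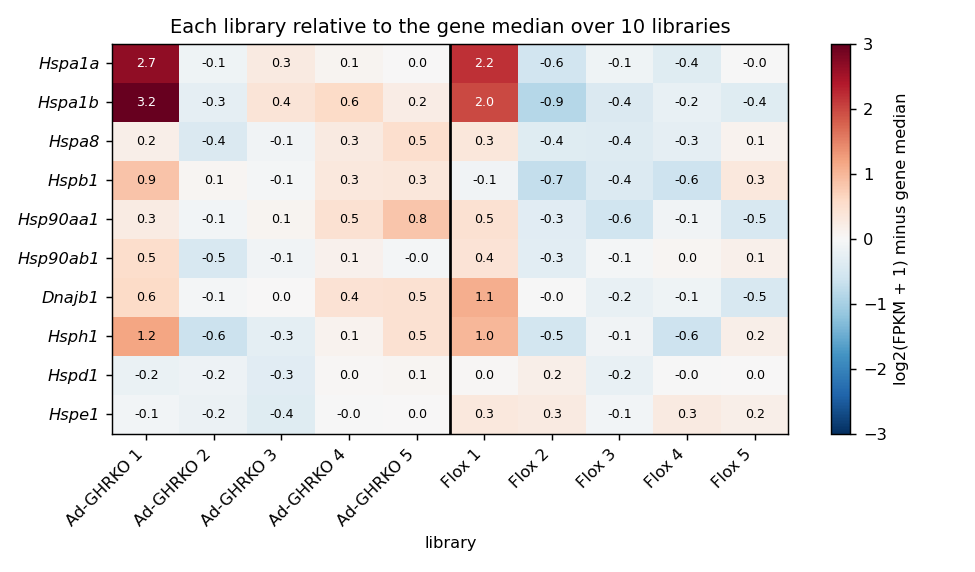
Each member (rows) in each library (columns, Ad-GHRKO 1 to 5 and then Flox 1 to 5), as log2(FPKM + 1) minus the median of the gene over the 10 libraries. Ad-GHRKO 1 and Flox 1 stand out in Hspa1a, Hspa1b and Hsph1, and Hspd1 and Hspe1 are nearly flat.

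RefSeq promoter windows (GRCm38.p6) were matched for 7 of the 10 members, all but Hspa8, Hsp90aa1 and Hsp90ab1. Each window runs from 250 bases before to 50 bases after the start site and was searched on both strands. The heat shock element of 2 units (GAANNTTC or TTCNNGAA) was found in 5 of the 7 windows (Hspa1a, Hspa1b, Hspb1, Hsph1 and Hspe1), against 15.1% of all 32851 windows of the same length. The element of 3 units (GAANNTTCNNGAA or TTCNNGAANNTTC, each of which contains the shorter one) was found in 2 of 7 (Hsph1, at 37 bases after the start site, and Hspe1), against 0.603% of all windows. TATAAA was found in 0 of 7, against 13.6% of all windows, and CCAAT in 5 of 7, against 37.4% of all windows. The windows described for Dnajb1 and Hspd1 held neither form of the heat shock element. Dnajb1, Hsph1 and Hspd1 have 2 RefSeq windows each, of which a single one is described. That of Hspd1 shares only 4 bases with the window of Hspe1 and does not reach the elements printed for Hspe1.

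No regulator of the pathway passed the test with all libraries, and Hsf4 did so without Ad-GHRKO 1. Of the 4 tested genes of the heat shock factor list, 0 were higher, 0 were lower and 4 were not past the threshold (limma, 0 at an unadjusted p under 0.05), with a median log2 change of -0.10. Hsf1, the main activator, averaged 7.31 ± 0.999 FPKM in Ad-GHRKO and 7.51 ± 1.25 FPKM in Flox (SD, n = 5 each; log2 change -0.03, limma adjusted p = 0.947). Hsf1 is controlled mainly by its protein state, which these data do not measure. Hsf4, known as the factor of the eye lens, was 3.76 ± 1.76 FPKM in Ad-GHRKO and 5.24 ± 1.01 FPKM in Flox (SD, n = 5 each; log2 change -0.44, limma adjusted p = 0.338), and was highest in the muscle-rich libraries of both genotypes. Without Ad-GHRKO 1, Hsf4 was lower in Ad-GHRKO (log2 change -0.64, limma adjusted p = 0.0227). The same held without both libraries numbered 1 (-0.67, limma adjusted p = 0.0317). Both settings leave out the muscle-rich Ad-GHRKO library but keep the muscle-rich Flox libraries. Muscle content then differs between the genotypes and cannot be told apart from genotype. Hsf4 did not pass when all of the muscle-rich libraries were left out. Hsbp1, a small protein that binds Hsf1 trimers, had a log2 change of -0.18 (limma adjusted p = 0.544).

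The counts for the relatives of the members depended on Ad-GHRKO 1, the library with the most muscle RNA. Without it 1185 of all 12785 tested genes were called (778 higher, 407 lower), in place of 280. Each list count from that setting is to be read beside this share, and not beside the 2.19% called with all libraries. That setting keeps the muscle-rich Flox 3 and Flox 5, so muscle content then differs between the genotypes and cannot be told apart from genotype. Of the genes named from it below, Hspa13, Fkbp4, Pfdn2, Dnaja3, Mt1, Hmox1 and Zfand2a did not pass without all 3 muscle-rich libraries. Of 7 tested genes of the remaining Hsp70 and Hsp110 family, 0 passed in either direction (limma, 1 at an unadjusted p under 0.05), and the median log2 change was 0.19. The closest was Hspa13, with 4.88 ± 1.33 FPKM in Ad-GHRKO and 3.35 ± 0.458 FPKM in Flox (SD, n = 5 each; log2 change 0.41, limma adjusted p = 0.270). Without Ad-GHRKO 1 it passed (0.56, limma adjusted p = 0.0168). Hspa2, best known from male germ cells, had a log2 change of 0.32 (limma adjusted p = 0.364). Of 18 other cytosolic J-domain proteins, 0 passed (limma, 2 unadjusted), with a median of 0.06. The 2 were Dnajb4, a partner of Hsp70 related to Dnajb1 (log2 change 0.50, limma adjusted p = 0.205), and Dnajc13, which works in endosomes (0.33, limma adjusted p = 0.232). Dnajc13 passed without Ad-GHRKO 1 (0.43, limma adjusted p = 0.0167).

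Among the other small heat shock proteins, 0 of 6 tested genes passed (limma, 1 unadjusted), with a median log2 change of 0.23. Hspb7, a small heat shock protein known mainly from heart and skeletal muscle, was 20.8, 65.6, 49.8, 49.9 and 58.8 FPKM in Ad-GHRKO libraries 1 to 5, against 0.296, 2.71, 15.2, 1.21 and 23.1 FPKM in Flox libraries 1 to 5. In Ad-GHRKO the muscle-rich library was the lowest, while in Flox the muscle-rich libraries, 3 and 5, were the highest. The log2 change of Hspb7 was 3.14 (SE 0.73, limma adjusted p = 0.0513), just outside the threshold, and it was 4.69 (limma adjusted p = 0.00186) without the 3 muscle-rich libraries. It passed in 8 of the 20 alternatives. Hspb8, which works with Bag3 in the disposal of damaged filaments, was 154 FPKM in Ad-GHRKO 1 and 48.3 to 52.9 FPKM in Ad-GHRKO 2 to 5, against 171 FPKM in Flox 5 and 72.0 to 96.8 FPKM in Flox 1 to 4. Its highest library in each genotype was thus a muscle-rich one, and the log2 change was -0.62 (limma adjusted p = 0.410). Without Ad-GHRKO 1 both Hspb7 (3.42, limma adjusted p = 0.0265) and Hspb8 (-0.94, limma adjusted p = 0.0306) passed. With all 3 muscle-rich libraries left out 3 genes did, Hspb7, Hspb8 (-0.70, limma adjusted p = 0.0250) and Hspb6 (0.93, limma adjusted p = 0.0414), the last named after its values were seen.

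Of 25 tested cochaperones of Hsp70 and Hsp90, 0 passed (limma, 3 unadjusted), with a median log2 change of -0.01. Bag1, a nucleotide exchange factor of Hsp70, was 93.1, 119, 109, 135 and 128 FPKM in Ad-GHRKO libraries 1 to 5, against 200.3, 239, 153, 178 and 164 FPKM in Flox libraries 1 to 5. Every Ad-GHRKO library was below every Flox library, and the log2 change of -0.67 (SE 0.17) missed the threshold (limma adjusted p = 0.0659), which it passed in 4 of the 20 alternatives. Sgta, which hands tail-anchored proteins on to the Bag6 complex, had a log2 change of -0.47 (limma adjusted p = 0.168). Without Ad-GHRKO 1, 2 of the 25 tested cochaperones were called, against 1185 of all 12785 tested genes. Both were lower in Ad-GHRKO, Bag1 (-0.59, limma adjusted p = 0.0427) and Fkbp4 (-0.55, limma adjusted p = 0.0459). Fkbp4, a partner of Hsp90 in steroid receptor folding, was named after its values were seen. Of 15 tested subunits of the cytosolic chaperonin TRiC and of prefoldin, 0 passed (limma, 2 unadjusted), with a median of 0.07. The prefoldin subunits Pfdn2 (-0.33, limma adjusted p = 0.272) and Pfdn5 (-0.39, limma adjusted p = 0.276) had the smallest p there. Pfdn2 passed without Ad-GHRKO 1 (-0.43, limma adjusted p = 0.0404), and Pfdn5 without the 3 muscle-rich libraries (-0.59, limma adjusted p = 0.0342).

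Of 16 tested mitochondrial chaperones and proteases outside the members, 0 were higher, 1 was lower and 15 were not past the test, with a median log2 change of -0.21 and 12 negative changes. The one that fell was Dnajc15, a J-domain protein of the mitochondrial inner membrane. Dnajc15 was 6.12, 7.65, 6.39, 8.60 and 5.80 FPKM in Ad-GHRKO libraries 1 to 5, against 14.1, 13.6, 10.4, 11.3 and 12.1 FPKM in Flox libraries 1 to 5. The groups did not overlap, and the log2 change was -0.75 (SE 0.13, limma adjusted p = 0.0170). The call was lost on rescaling to TPM (limma adjusted p = 0.0555), without Ad-GHRKO 3 (0.0592) and without Flox 2 (0.0526). The count of the list ran from 0 to 3 over the alternatives, all lower in Ad-GHRKO. It was 3 without Ad-GHRKO 1, where the protease subunit Clpp (log2 change -0.59, limma adjusted p = 0.0343) and the J-domain protein Dnaja3 (-0.42, limma adjusted p = 0.0476), both named after their values were seen, passed too. With all libraries Clpp was just outside the threshold (-0.63, limma adjusted p = 0.0503). Clpp also passed without the 3 muscle-rich libraries (-0.71, limma adjusted p = 0.0367), but not on rescaling to TPM or with the replicate block. Hspa9, the Hsp70 of mitochondria, was 86.8 ± 6.80 FPKM in Ad-GHRKO and 94.1 ± 6.94 FPKM in Flox (SD, n = 5 each; log2 change -0.12, limma adjusted p = 0.694), close to the change of Hspd1, whose product it works with.

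Of 17 tested chaperones of the endoplasmic reticulum, 0 passed (limma, 4 unadjusted), with 15 positive changes and a median of 0.29. Sdf2l1, a cofactor of the chaperone BiP, was 34.3 ± 7.29 FPKM in Ad-GHRKO and 21.3 ± 4.21 FPKM in Flox (SD, n = 5 each; log2 change 0.66, limma adjusted p = 0.109), and it passed without Ad-GHRKO 2 (0.80, limma adjusted p = 0.0426). Dnajb9, a J-domain partner of BiP, had a log2 change of 0.46 (limma adjusted p = 0.188).

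Genes outside the members that Hsf1 is known to act on, or that respond to similar stress, gave 1 higher, 0 lower and 11 not past of 12 tested, with a median log2 change of 0.49. The 12 include Bag3, which is also counted among the cochaperones. The one that rose was Gadd45b, a growth arrest and stress gene. Gadd45b was 18.7, 19.9, 19.2, 13.0 and 41.4 FPKM in Ad-GHRKO libraries 1 to 5, against 8.01, 6.38, 9.19, 8.32 and 4.16 FPKM in Flox libraries 1 to 5. The groups did not overlap, with a log2 change of 1.45 (SE 0.28, limma adjusted p = 0.0243). The call was lost in 6 of the 20 alternatives, among them leaving out Ad-GHRKO 3 (adjusted p = 0.0603), Flox 2 (0.0645), Flox 5 (0.0510) or the 3 muscle-rich libraries (0.0522), up to an adjusted p of 0.117. The count of the list ran from 0 to 4 over the alternatives, all higher in Ad-GHRKO. Without Ad-GHRKO 1 it was 4, where the metallothionein Mt1 (log2 change 1.36, limma adjusted p = 0.0287), the heme-degrading enzyme Hmox1 (1.06, limma adjusted p = 0.0418) and Zfand2a (0.61, limma adjusted p = 0.0235), all named after their values were seen, passed as well. With all libraries the limma adjusted p was 0.0579 for Mt1, 0.132 for Hmox1 and 0.137 for Zfand2a. Mt1 (0.0194) and Zfand2a (0.0285) also passed with the muscle score as a covariate, where Hmox1 did not.

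The immediate early list held 6 called genes. Of 18 tested, 6 were higher, 0 were lower and 12 were not past, all 18 changes were positive and the median log2 change was 1.24. The median of the 10 chaperones was 0.22, and the difference between the lists was not tested. Fos, a subunit of the transcription factor AP-1, averaged 96.1 ± 52.4 FPKM in Ad-GHRKO and 13.6 ± 3.90 FPKM in Flox (SD, n = 5 each; log2 change 2.58, limma adjusted p = 0.00436). Egr1, a zinc finger transcription factor, averaged 46.5 ± 26.0 FPKM in Ad-GHRKO and 6.86 ± 1.43 FPKM in Flox (SD, n = 5 each; log2 change 2.43, limma adjusted p = 0.00454). Dusp1, a phosphatase of MAP kinases, had a log2 change of 1.45 (limma adjusted p = 0.0134), and Junb, another AP-1 subunit, 2.11 (limma adjusted p = 0.0140). Dusp1 overlaps exons of Ergic1 and Junb those of Prdx2, each on the opposite strand. Macrophage markers, 8 of 8 with positive changes, and Acta2 had higher means in Ad-GHRKO beside these calls and that of Gadd45b without passing the test, and their part in the calls was not tested. The count of called genes ran from 3 to 11 over the 20 alternatives, all of them higher in Ad-GHRKO. It was 11 with the muscle score as covariate and without both libraries numbered 1, 9 without Ad-GHRKO 1, and 3 with no filter. Without the 3 muscle-rich libraries it was 3, and Dusp1 and Junb did not pass (limma adjusted p = 0.0543 each).

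**Figure D5:**
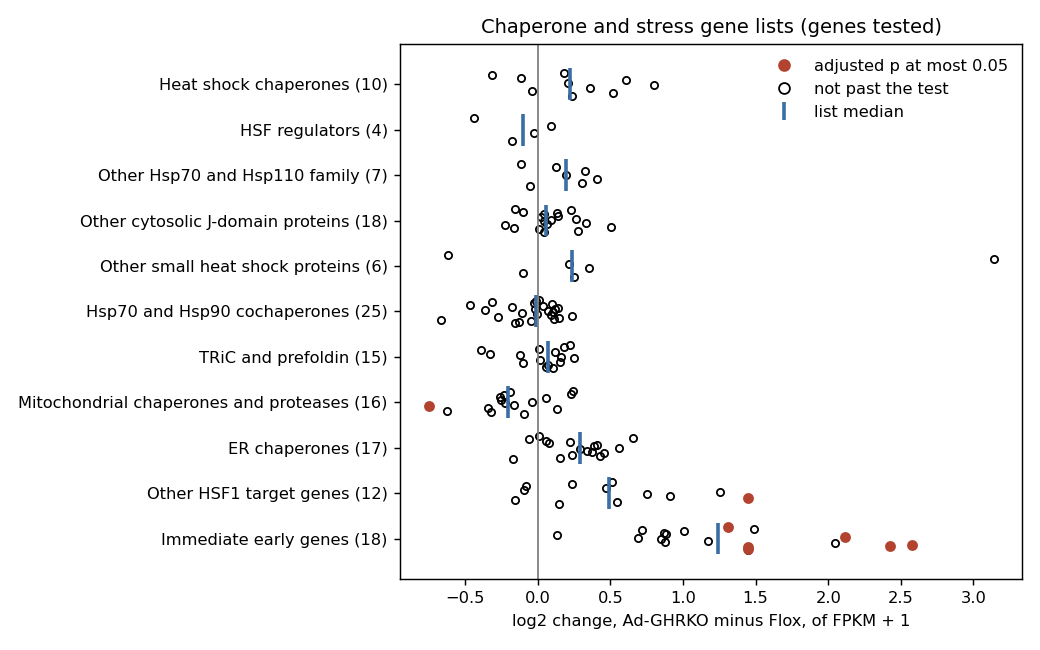
Log2 change (Ad-GHRKO minus Flox, on FPKM + 1) of every tested gene in the chaperone and stress lists, with 1 point per gene (filled where it passed the test) and a short line at the median of each list. The 10 heat shock chaperones lie between -0.32 and 0.80, while the immediate early genes are all above 0 with a median of 1.24.

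The genes whose pattern over the 10 libraries was most like the mean standardised profile of Hspa1a, Hspa1b, Dnajb1 and Hsph1 were, by Pearson correlation, Bag3 (0.938), Herpud1 (0.864), Gadd45g (0.840), Ddx23 (0.835), Slc15a4 (0.812) and Emd (0.808). Bag3, a cochaperone of Hsp70, was 61.7, 32.2, 36.4, 35.0 and 37.1 FPKM in Ad-GHRKO libraries 1 to 5, against 51.9, 26.8, 34.8, 30.9 and 37.5 FPKM in Flox libraries 1 to 5. It too was highest in the library numbered 1 of each genotype. Without those libraries the correlation was 0.654 for Bag3, 0.241 for Herpud1 and 0.431 for Gadd45g, so the likeness rested partly on them. The genes most like the mean standardised profile of Hspd1 and Hspe1 were Mrpl48 (0.906), Nhp2 (0.898), Cmc2 (0.895), Mrfap1 (0.894), Rabggtb (0.893) and Smoc2 (0.889). For Mrpl48, which encodes a mitochondrial ribosomal protein, the correlation was 0.897 without the libraries numbered 1. These correlations describe 10 libraries of 2 genotypes that share their depth scaling, and the genes were picked as the highest of all those tested.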

How the data were processed

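RNA sequencing libraries of polyadenylated RNA were made with second-strand marking, per the labels' protocols. How reads were aligned and counted, and whether strand was used, is not given in the labels or headers. One table of FPKM values, with 1 column per library, was deposited by the authors, per the file headers. The submitters' processing notes name GRCm39, but 99.54% of 31253 gene identifiers had the coordinates of GENCODE release M21 (GRCm38), which are the ones printed.

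FPKM multiplied by exon length gave whole reads, within 0.01, for 99.24% to 99.32% of values per library, and these served for depth and for a limma voom fit. The genotypes were compared on log2(FPKM + 1) by limma 3.58.1 (R 4.3.3), two-sided, with the variance trended on the mean. Of the table, 12785 genes reached 1 FPKM in 5 or more libraries and were fitted, and p-values were adjusted over all of these (Benjamini-Hochberg, 0.05). This scale understates changes of low genes. Lists are described by counts and medians, with no set test. The fit was tried on simulated data. Tables and figures used Python 3.11.15, pandas 2.3.3, scipy 1.17.1 and matplotlib 3.10.9, and sequences came from RefSeq.

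Members, lists and tests were chosen with earlier results of these data known. The named genes are the 10 members, Ghr, up to 4 called genes per list (or, with none called, the 2 with the smallest p), and the 6 genes most like each of 2 member profiles among genes with a mean of at least 5 FPKM, leaving out predicted genes. Hsf1, Hspa9 and the values of Bag3 were added after their values were seen. Of each cell type list the most abundant genes served as a check only.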

Additional observations from a re-analysis of the deposited data

Results flagged for a closer look

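Single libraries stood apart from the other 4 of their genotype (Dixon's test, 95% critical value) in 5 of 20 member groups, and in 13 of 62 groups over all named genes. The test was run on FPKM that was not log-transformed. The groups are genes of the same libraries and so are not independent, and these counts cannot be set against a chance rate. Hspa1a stood apart at 16.4 FPKM in Ad-GHRKO 1 and at 11.6 FPKM in Flox 1. Hspa1b did so at 60.9 FPKM in Ad-GHRKO 1 and at 26.1 FPKM in Flox 1, and Dnajb1 at 31.4 FPKM in Flox 1.

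Among genes outside the members, 3 values came from Ad-GHRKO 1, namely Hsf4 at 6.83 FPKM and Hspb8 at 154 FPKM, both high, and Dnajc13 at 5.16 FPKM, which was low. Hspb8 also stood apart at 171 FPKM in Flox 5. Ad-GHRKO 1 and Flox 5 had the largest shares of skeletal muscle marker reads, 16.8% and 9.61%. Ad-GHRKO 5, with the highest sum of immediate early genes (1117 FPKM), stood apart at 13.3 FPKM of Dnajb4 and 41.4 FPKM of Gadd45b. Flox 4 stood apart at 14.6 FPKM of Dnajb9 and 20.3 FPKM of Fos. The part that muscle, handling or other features of these libraries had in the values was not tested.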

How the results depend on the processing

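None of the 10 members passed the test in any of the 20 alternatives, and Ghr passed in all, with a log2 change of -2.49 to -2.29 when each library was left out in turn. Genes changed over the whole table numbered 280, but 117 with no filter, 533 with median ratio scaling, 811 with the muscle score as covariate, 777 without the 3 muscle-rich libraries and 1059 without both libraries numbered 1 (added after seeing the data). With the replicate block there were 85 and no member, with Hspa1b nearest (adjusted p = 0.0648), while Dnajc15 (0.0855) and Gadd45b (0.117) were lost. The correlations of same-numbered libraries ran from -0.489 to 0.394 and not all were above 0.1, so the numbers were not taken to pair the samples. These correlations cover all tested genes, and that of Ad-GHRKO 1 was highest with Flox 5 (0.655), another muscle-rich library. They therefore cannot decide whether equal numbers mark a pair, and whether they mark a shared batch was not tested. Leaving out 1 library gave 116 to 1185 genes, the highest without Ad-GHRKO 1 and the lowest without Ad-GHRKO 3, with 154 without Ad-GHRKO 4, 134 without Ad-GHRKO 5, and 135, 153, 137 and 167 without Flox 2, 3, 4 and 5 in turn. Rescaling to TPM put the median log2 change of all genes at 0.14 in place of 0.04, and the called genes at 162 higher and 100 lower in place of 99 and 181.

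Signs turned for members far from the threshold. Without the 3 muscle-rich libraries the log2 change was -0.36 for Hspa1a, -0.069 for Hspa1b, -0.10 for Dnajb1 and -0.036 for Hsph1. That alternative leaves out Ad-GHRKO 1 but keeps Flox 1, the highest Flox library for each of these genes. On rescaling to TPM the log2 change was 0.082 for Hsp90ab1 and 0.0035 for Hspd1. Leaving out 1 library gave -0.17 (without Ad-GHRKO 1) to 0.85 for Hspa1a, -0.073 (without Ad-GHRKO 1) to 0.44 for Hsph1, and -0.17 to 0.082 for Hsp90ab1, positive without Ad-GHRKO 2 or Flox 1. The cause was not tested. Hspa1a was not tested with a filter of 5 FPKM.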
